A study of Mus musculus with 16 samples.

Results

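The nuclear-encoded genes of the mitochondrial respiratory chain were followed in mouse lung group 2 innate lymphoid cells (ILC2s), lymphocytes that make type 2 cytokines in response to tissue signals. Members were the protein-coding genes whose symbols begin with Nduf followed by a, b, c, s or v and a digit (complex I), are Sdha to Sdhd (complex II), or begin with Uqcr (complex III), Cox4 to Cox8 (complex IV) or Atp5 (complex V), without pseudogenes. The rule chose 84 of the 51912 genes in the count table, by name alone: 37 for complex I, 4 for complex II, 8 for complex III, 18 for complex IV and 17 for complex V. A further 11 genes matched by name but were not protein-coding or were marked as pseudogenes. The 16 bulk mRNA-Seq libraries came from WT and Pac1-/- ILC2s, where Pac1 is the dual-specificity phosphatase gene Dusp2, each given 4 treatments for 4 hours with 2 libraries per genotype and treatment and about 500 cells per library. According to the paper's culture methods, sorted lung ILC2s were first expanded with IL-2 and IL-7, which were removed before the stimuli were added. In the treatments all cells received IL-7 (100 ng/mL), a survival cytokine. The other treatments added IL-33 (100 ng/mL), an alarmin that activates ILC2s, or IL-33 with a neuropeptide, either CGRP or NMU (500 ng/mL each). The labels do not say whether the 2 libraries of a group came from separate mice, so P values measure only the spread between these libraries.

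The respiratory chain passes electrons from NADH through complex I, or from succinate through complex II, to ubiquinone, then through complex III and cytochrome c to complex IV, which reduces oxygen. Complexes I, III and IV pump protons across the inner mitochondrial membrane, and complex V uses the gradient to make ATP. Mitochondrial DNA encodes a small core of subunits of every complex but complex II, and the nucleus encodes the rest, so the members and the mitochondrial transcripts are products of separate genomes. Activated lymphocytes are known for adjusting both glycolysis and respiration. In bulk libraries, fewer cells of a type and less RNA per cell cannot be told apart.

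Promoter sequence is shown for 3 members: Cox7a2l, which had the largest change that passed the test, Uqcrfs1, which holds a cyclic AMP response element, and Cox6a1, the member with the highest level per length, which holds 3 kinds of motif. CGRP is known to act through a receptor that raises cyclic AMP, so that element was searched along with motifs common in genes for mitochondrial proteins. Sequences are from RefSeq (GRCm38.p6), 5′ to 3′ on the strand of the gene, ending at or near the RefSeq start site, with motif matches on either strand in capitals. Cox7a2l at chr17:83514334-83514583 (minus strand) holds 1 GC box, and this RefSeq start lies inside the longer gene model used here. Uqcrfs1 at chr13:30545333-30545566 (minus strand) holds the cyclic AMP response element within its last 30 bases, which lie in an annotated exon. Cox6a1 at chr5:115348959-115349129 (minus strand) holds an NRF-1 core, 2 GC boxes and an ETS core. Its last 23 bases, which hold the ETS core, lie in an annotated exon.
Cox7a2l: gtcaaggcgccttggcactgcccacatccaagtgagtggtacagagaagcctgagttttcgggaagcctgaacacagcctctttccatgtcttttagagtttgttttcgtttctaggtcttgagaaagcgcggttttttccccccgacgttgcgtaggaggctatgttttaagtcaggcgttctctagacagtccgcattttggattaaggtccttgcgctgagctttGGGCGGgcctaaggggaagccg
Uqcrfs1: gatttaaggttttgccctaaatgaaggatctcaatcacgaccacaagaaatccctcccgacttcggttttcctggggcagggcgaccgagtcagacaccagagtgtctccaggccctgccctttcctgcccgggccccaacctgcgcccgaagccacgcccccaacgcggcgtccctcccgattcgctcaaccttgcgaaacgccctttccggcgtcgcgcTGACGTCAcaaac
Cox6a1: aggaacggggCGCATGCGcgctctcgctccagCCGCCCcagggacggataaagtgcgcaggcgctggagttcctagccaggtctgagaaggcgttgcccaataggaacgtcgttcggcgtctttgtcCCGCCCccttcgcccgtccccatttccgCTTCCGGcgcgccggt

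Promoters of 300 bases (250 before the start and 50 after) were found for 66 of the 84 members by symbol. The NRF-1 core CGCATGCG was in 9 of the 66 (13.6%) and in 1.87% of all 32851 promoters. The ETS core CCGGAAG, the site of NRF-2/GABP, was in 16 (24.2%) against 8.86% of all. The YY1 core AAGATGGC was in 9 (13.6%) against 2.75%. The cyclic AMP response element TGACGTCA was in 4 (6.06%), Ndufa10, Ndufa11, Ndufb2 and Uqcrfs1, against 1.79%. The GC box GGGCGG was in 26 (39.4%) against 35.7%, and TATAAA was in 7 (10.6%) against 13.6%. Motifs were searched on both strands, and a match is a run of letters, not a shown binding site.

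Library depth was 6764992 to 15963357 counts (median 11071278), with 12776 to 16211 genes detected, and log2 CPM of paired replicates correlated at 0.847 to 0.929 across genes, which are not independent replicates. Dusp2, the deleted gene, had 0 counts in all 8 Pac1-/- libraries but also in 6 of 8 WT libraries, so it does not check the genotype labels. All 10 ILC2 markers were detected in every library, with a summed level of 7770 to 12180 CPM (CPM, counts scaled to a common library size by TMM). The T cell marker Cd8a and the ILC1/NK marker Tbx21 were at 0 in all 16 libraries. The summed level of 3 B cell markers (Cd79a, Cd79b and Ms4a1) was 35.45 to 269.2 CPM with CGRP and at most 42.22 CPM in the other libraries, and that of 4 lung epithelial markers reached 331 CPM with NMU. All markers of both lists were detected in at least 1 library, but Ms4a1 was at 0 in 8 libraries and Sftpc in 12, and their part in the results below was not tested.

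Of the 84 members, 78 had enough counts to be tested, among 14979 tested genes. They were 36 of complex I, 4 of complex II, 8 of complex III, 13 of complex IV and 17 of complex V. The 6 members left out were isoforms: Cox6a2, Cox7b2, Cox8b and Cox8c, isoforms of muscle or testis, had 0 counts in all 16 libraries, while Ndufa4l2 had 1 count and Cox4i2, a lung and hypoxia isoform, had 3 counts in 1 library. A count of 0 allows a level of up to 0.171 to 0.462 CPM, depending on the library (3 counts, counting error only). The muscle isoform Cox7a1 was detected in every library, at 1.13 to 13.96 CPM. The testis isoform Cox6b2 had at most 73 counts and was at 0 in 5 libraries. Atp5s was the 1 member listed at 0 in a library (WT CGRP replicate 2) while above 10 CPM in another group, at 15.32 to 37.68 CPM with IL-7. In replicate 1 of the same WT CGRP group it had 502 counts, the most of any library.

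Levels of the 78 tested members spanned 3 orders of magnitude per length. Mean CPM per kilobase of exon was highest for Cox6a1 (2215), a small subunit of complex IV, and Ndufa1 (1654), a small accessory subunit of complex I. For the other complexes it was highest for Uqcrb (866.9) in complex III, Atp5mpl (546.8) in complex V and Sdhd (268.4) in complex II. Among tested members the low end held Cox6b2 (1.544) in complex IV, Ndufb2 (1.968) in complex I, Atp5s (8.66) in complex V, Sdha (19.56) in complex II and Uqcrc1 (24.23) in complex III. The gene models of the last pair, a flavoprotein and a core protein, are 4126 and 4135 bases long, which lowers a level per length. That of Ndufb2 is 5628 bases, but its mean was only 11.08 CPM before division by length. Ndufb2 shares 145 exonic bases with the same-strand gene Gm42420 and 146 with the opposite-strand gene Braf. The part of this sharing in its level was not tested. In total the members took 2.303% to 3.86% of the counts of a library.

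With IL-7 alone, the summed level of all members was high and even: 39376 and 35230 CPM in WT and 40267 and 34984 CPM in Pac1-/-. With IL-33 the values were 28909 and 35466 CPM in WT and 24976 and 20612 CPM in Pac1-/-. With IL-33 and CGRP they were 30757 and 26434 CPM in WT and 23885 and 24967 CPM in Pac1-/-. All 4 CGRP libraries lay below the 4 IL-7 libraries, whereas 1 IL-33 library (WT replicate 2) reached into the IL-7 range. With IL-33 and NMU the libraries scattered widely, with 30369 and 20207 CPM in WT and 41057 and 29242 CPM in Pac1-/-.

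**Figure D1:**
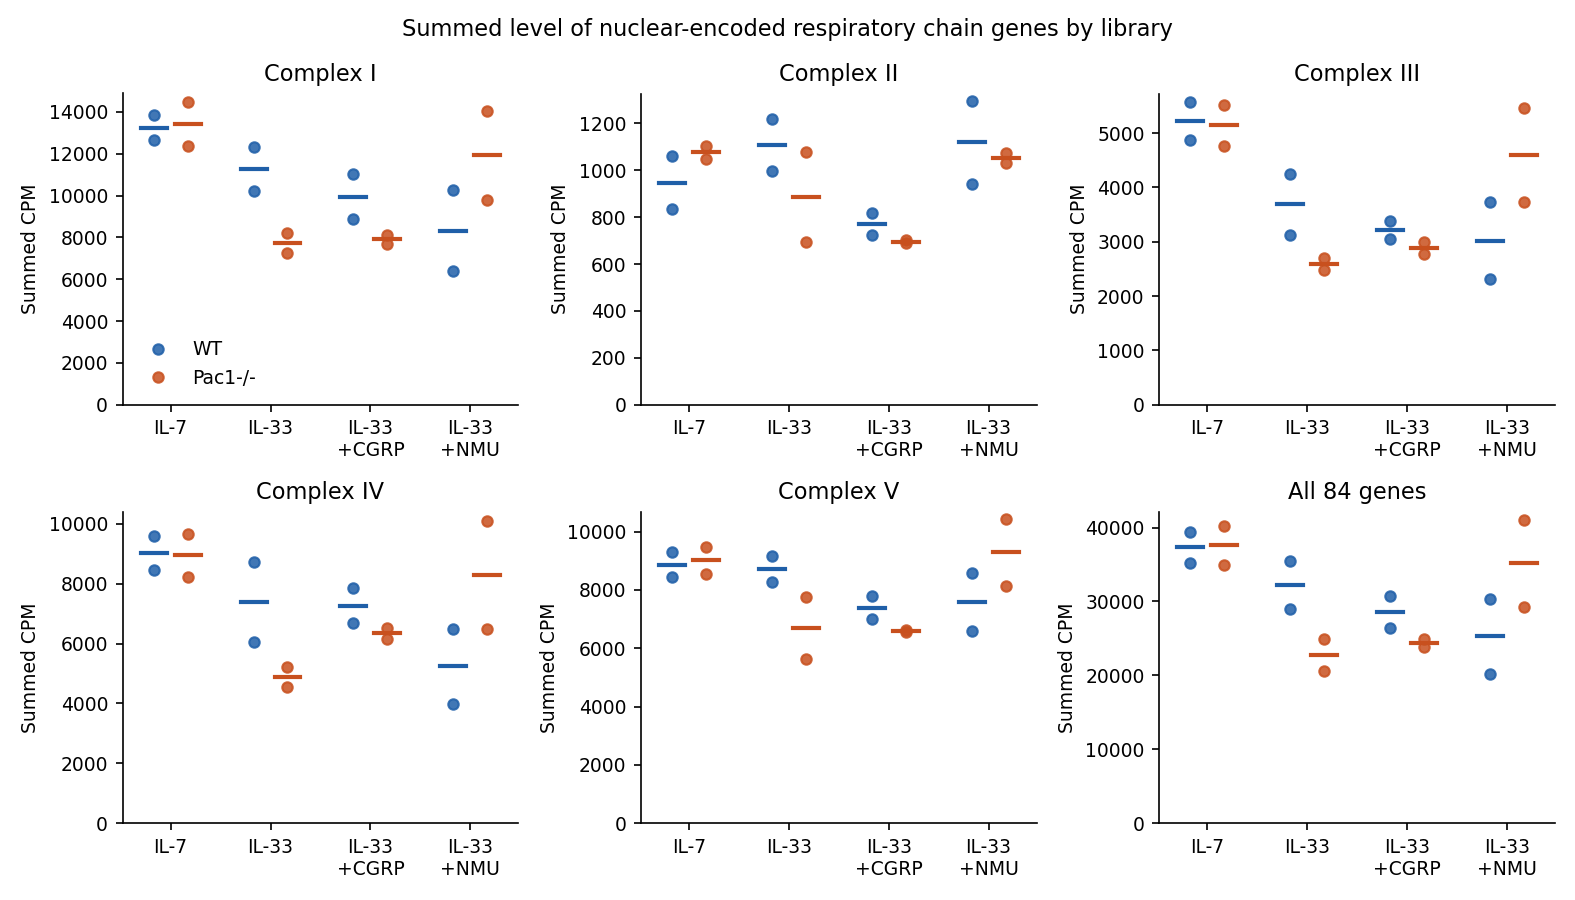
Summed CPM of the members of each complex and of all 84 genes (y axes, from 0) in each library by treatment (x axis), with WT in blue and Pac1-/- in orange, points for libraries and bars for the mean of 2. Complexes I, III, IV and V share a shape, with IL-7 high and Pac1-/- IL-33 low, while the mean of complex II over 4 libraries is lowest with CGRP.

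Complexes I, III, IV and V followed that shape. Complex III members summed to 4755 to 5568 CPM with IL-7 and to 2473 to 4256 CPM with IL-33, with no overlap between the 4 libraries of each. Complex I summed to 12387 to 14476 CPM with IL-7 and 7263 to 12316 CPM with IL-33, again without overlap. Complex IV overlapped through WT IL-33 replicate 2, at 8241 to 9669 CPM with IL-7 and 4536 to 8727 CPM with IL-33. Complex V overlapped too, at 8434 to 9490 CPM and 5648 to 9169 CPM. Complex II, the only complex with no mitochondrially encoded subunit and the only one shared with the citric acid cycle, was at 835 to 1106 CPM with IL-7 and 693 to 1219 CPM with IL-33. With CGRP it was at 689 to 816 CPM.

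The comparison of IL-33 with IL-7 asks how the alarmin changes these genes. No single member passed the test, which needed a fold change above 1.5 and an adjusted P under 0.05 (edgeR quasi-likelihood, Benjamini-Hochberg over 14979 genes), and 0.0334% of all tested genes did. DESeq2 called 3 members, all lower. At an unadjusted P under 0.05 edgeR counted 42 of 78 members (53.8%), 39 lower and 3 higher. The share was 9.88% of all tested genes and 21.3% of genes with at least 50 CPM. Among genes under 1000 bases it was 77.8% of the members and 40.6% of other protein-coding genes with at least 50 CPM. The fitted log2 fold change was negative for 60 of 78 members, with a median of −0.57 (−0.38 under total-count scaling), while the median of all tested genes was 0.077 and that of genes with at least 50 CPM was −0.036. All 4 IL-33 libraries lay below all 4 IL-7 libraries for 17 members (21.8%), against 2.59% of all genes and 6.78% of genes with at least 50 CPM. Under 1000 bases this held for 33.3% of members and 18.8% of other protein-coding genes with at least 50 CPM. They lay above for 0 members, against 2.65% of all genes and 4.1% of genes with at least 50 CPM.

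By complex, the median log2 difference was −0.58 for complex I (28 of 36 members negative), −0.59 for complex III (6 of 8), −0.65 for complex IV (12 of 13), −0.52 for complex V (12 of 17) and 0.07 for complex II (2 of 4). The smallest P belonged to Uqcrq (ENSMUSG00000044894, chr11:53427922-53430831, minus strand), a small subunit of complex III that sits beside cytochrome b. Uqcrq stood at 1532, 1337, 1521 and 1306 CPM with IL-7 (WT replicates 1 and 2, then Pac1-/- replicates 1 and 2, the order used throughout) and at 467.2, 729.3, 399.1 and 437.7 CPM with IL-33. The groups were far apart, by a log2 difference of −1.51 (SE 0.25), yet the edgeR adjusted P was 0.068. DESeq2 gave Uqcrq an adjusted P of 1.57e-05, and edgeR called it when any 1 of 7 of the 8 libraries was left out, the exception being WT IL-33 replicate 1.

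Next came Uqcr10, another small complex III subunit, and Ndufa7, an accessory subunit of complex I. Uqcr10 was at 738.3, 561, 754.4 and 563.2 CPM with IL-7 and at 347.7, 544, 314.2 and 252.9 CPM with IL-33 (log2 difference −0.88, SE 0.24, edgeR adjusted P = 0.337). Ndufa7 was at 493.6, 355.6, 482.5 and 388.9 CPM with IL-7 and 263.8, 338.2, 212.5 and 206.3 CPM with IL-33 (log2 difference −0.78, SE 0.21, edgeR adjusted P = 0.337). In both genes every IL-33 library was below every IL-7 library.

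For 9 chosen core subunits, a list that leaves out other core subunits, the values were as follows. Atp5a1 and Atp5b, the alpha and beta subunits of the ATP synthase head, had positive log2 differences with IL-33 of 0.58 (SE 0.29) and 0.68 (SE 0.31). Ndufv1 and Ndufs1, which carry the flavin and iron-sulfur clusters of complex I, had 0.72 (SE 0.61) and 0.48 (SE 0.37), and Sdha, the flavoprotein of complex II, had 0.45 (SE 0.31). Cox4i1 (0.21, SE 0.15) and Uqcrc1 (0.12, SE 0.33), a core protein of complex III, were slightly positive, and Cox5a (−0.21, SE 0.21) and Uqcrfs1 (−0.16, SE 0.23), the Rieske iron-sulfur protein, slightly negative. None of the 9 passed the test, the smallest edgeR adjusted P being 0.485 for Atp5b.

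The merged length of a gene's annotated exons, which can exceed that of its transcripts, moved with this difference. The median log2 difference was −0.66 for the 18 members under 1000 bases, −0.55 for the 31 members of 1000 to 2000 bases and −0.15 for the 29 members over 2000 bases. Other protein-coding genes with at least 50 CPM showed the same order, at −0.48 (96 genes), −0.19 (382 genes) and 0.03 (2189 genes). Genotype moved with it too: within WT the members' median was −0.21 (49 of 78 negative, 2 at an unadjusted P under 0.05, against 4.15% of all tested genes), and within Pac1-/- it was −0.84 (63 of 78 negative, 43 at that P, against 7.6%). The medians of all tested genes were 0 and 0.10. The genotype by IL-33 interaction called 0 members with edgeR or DESeq2, and its median was −0.56 (−0.33 without WT IL-33 replicate 2 or under total-count scaling).

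**Figure D2:**
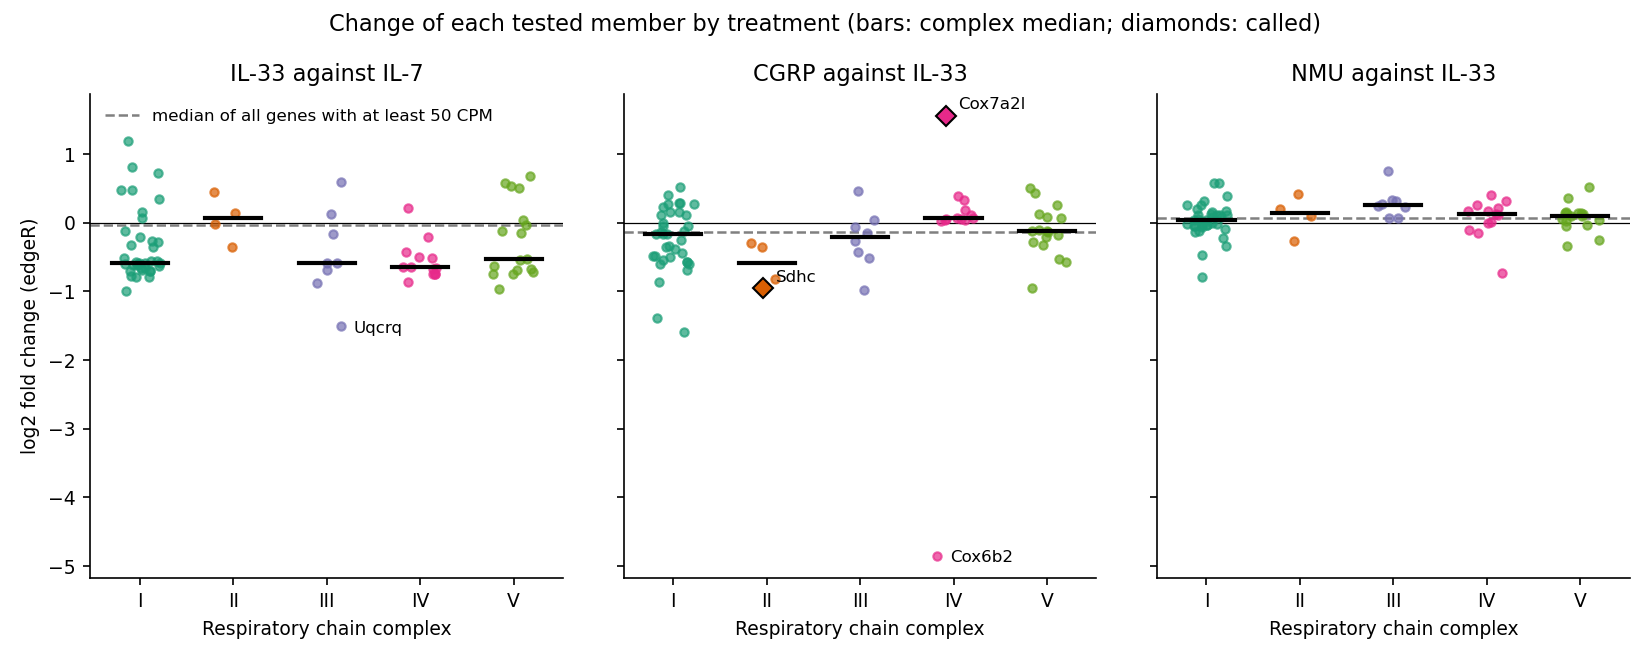
Fitted log2 fold change (y axis) of the 78 tested members by complex (x axis) for 3 comparisons, with a point per member, black bars for complex medians, a dashed line for the median of all genes with at least 50 CPM, and diamonds for members that passed the test. Most points lie below the dashed line with IL-33, Cox7a2l stands alone above with CGRP, and the low point of Cox6b2 comes from a gene with 0 or 1 count per CGRP library. Under total-count scaling the medians with NMU of all complexes but II (0) and III turn negative, as does that of complex IV with CGRP.

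Addition of CGRP to IL-33 raised 1 member and lowered 1, of 78 tested, where 2.76% of all tested genes passed (1.65% higher and 1.11% lower). This comparison shares its IL-33 libraries with the one above. Cox7a2l (ENSMUSG00000024248, chr17:83501918-83517330, minus strand) rose with CGRP. It is a paralogue of the complex IV subunit Cox7a that is known to join complexes III and IV into supercomplexes. Neither supercomplexes nor the Cox7a2l allele of these mice was examined. The level of Cox7a2l was 146.4, 170.9, 134.9 and 101.6 CPM with IL-33 and 289, 326.3, 577.6 and 487.3 CPM with CGRP. Every CGRP library was above every library of the other 3 treatments, since IL-7 gave 162.3, 194.7, 227.4 and 199.2 CPM and NMU 123.6, 109.3, 139.7 and 121.2 CPM. The fold was 2.955 (log2 1.56, SE 0.18, edgeR adjusted P = 0.000355), and the call held in all 15 alternatives, with edgeR and DESeq2 adjusted P values up to 0.00972. A near-identical gene, Gm6969, had 1094 counts in total against 37238 for Cox7a2l.

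Within each genotype both CGRP libraries had more Cox7a2l than both IL-33 libraries. The log2 difference was 0.96 (SE 0.25, edgeR adjusted P = 0.155) in WT and 2.17 (SE 0.26, edgeR adjusted P = 0.00121) in Pac1-/-. The interaction, 1.21 on the log2 scale (SE 0.35), did not pass in edgeR (adjusted P = 0.654) but did in DESeq2 (adjusted P = 0.00469). In CGRP libraries alone the Pac1-/- level was higher by 0.79 (SE 0.25, edgeR adjusted P = 0.398, DESeq2 adjusted P = 0.003), with both Pac1-/- libraries above both WT libraries.

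Sdhc (ENSMUSG00000058076, chr1:171127165-171150603, minus strand), a membrane anchor of complex II that binds heme, fell with CGRP. It stood at 131.1, 119.7, 160.7 and 99.24 CPM with IL-33 and at 76.59, 78.43, 52.27 and 60.51 CPM with CGRP, a log2 change of −0.95 (SE 0.21, edgeR adjusted P = 0.0316) or 1.932-fold lower. The groups did not overlap, but the call was lost when any of 7 of the 8 libraries was left out, with edgeR adjusted P values of 0.075 to 0.231, and in edgeR without a count filter (0.068) or on the compared libraries alone (0.125). The other 3 complex II genes also had negative log2 differences, and the median of the 4 was −0.59. Of these, Sdha was at 82.07, 78.7, 87.28 and 165.6 CPM with IL-33 and 37.23, 51, 71.86 and 75.51 CPM with CGRP, without overlap (log2 −0.82, SE 0.31, edgeR adjusted P = 0.204).

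The third smallest P with CGRP was that of Atp5a1, at 361.5, 204.6, 472.6 and 330.2 CPM with IL-33 and 217.2, 132.8, 187.3 and 164.2 CPM with CGRP (log2 −0.94, SE 0.30, edgeR adjusted P = 0.122). One CGRP library overlapped the lowest IL-33 library. Every CGRP library was above every IL-33 library for 1 member, Cox7a2l, against 5.82% of all genes. It was below for 4 members, Sdha, Sdhc, Uqcrq and Ndufb7, against 3.89%, of which Uqcrq and Ndufb7 were named after their values were seen. At an unadjusted P under 0.05 there were 13 of 78 members, 12 of them lower, against 16.7% of all tested genes. The median of all members was −0.13 (−0.37 under total-count scaling, −0.21 to −0.06 without 1 library), against −0.09 for all tested genes and −0.14 for genes with at least 50 CPM. In complex IV, 12 of 13 members had positive differences (median 0.07), but under total-count scaling 3 did and the median was −0.17.

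**Figure D3:**
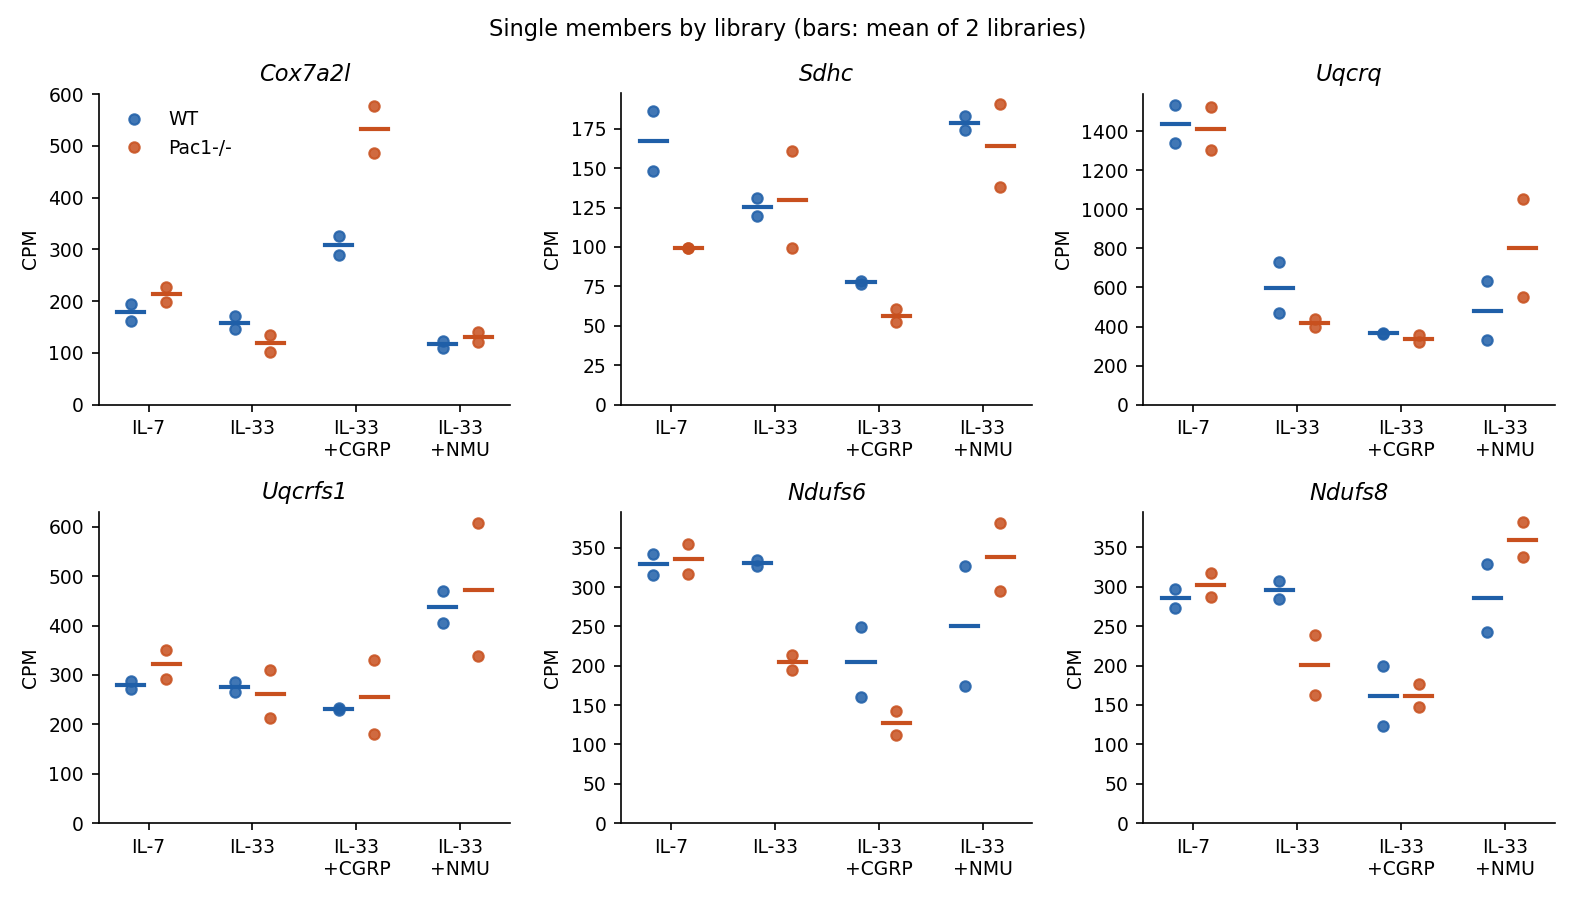
CPM (y axes, from 0) of single members in each library by treatment (x axis), with WT in blue and Pac1-/- in orange. Cox7a2l is at 289 to 577.6 CPM with CGRP and at 101.6 to 227.4 CPM elsewhere, Sdhc is lowest with CGRP, and Uqcrq is at 1306 to 1532 CPM with IL-7 and at most 1055 CPM elsewhere.

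Addition of NMU to IL-33 changed no member in edgeR or DESeq2, where 0.187% of all tested genes passed in edgeR. It used the same IL-33 libraries again. At an unadjusted P under 0.05 there were 2 members, against 6.5% of all genes. Uqcrfs1 was at 286.3, 265.6, 310.2 and 213.7 CPM with IL-33 and 470, 405.3, 337.5 and 608.6 CPM with NMU, without overlap (log2 0.76, SE 0.23, edgeR adjusted P = 0.426). Ndufb6, an accessory subunit of complex I, was at 168.7, 187.1, 130.1 and 108.3 CPM with IL-33 and 203.1, 129.8, 343.5 and 224.5 CPM with NMU (log2 0.58, SE 0.21, edgeR adjusted P = 0.631). Sdhc followed with 0.42 (SE 0.21, edgeR adjusted P = 0.793). The median of all members was 0.10 (53 of 78 positive), but −0.06 under total-count scaling, −0.11 without WT NMU replicate 1 and −0.04 without Pac1-/- NMU replicate 1. The genotypes went opposite ways, with a median of −0.37 in WT (71 of 78 negative) and 0.63 in Pac1-/- (70 of 78 positive).

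The neuropeptides were also set against each other, each on top of IL-33. With CGRP relative to NMU, 1 member was higher and 4 were lower, of 78, where 5.47% of all tested genes passed (2.63% higher and 2.84% lower). Cox7a2l was higher by 1.72 on the log2 scale (SE 0.18, edgeR adjusted P = 0.000154). Sdhc fell by 1.37 (SE 0.21, edgeR adjusted P = 0.00223), from 174.4, 183, 138.2 and 190.4 CPM with NMU. Both calls held in all 15 alternatives, and both genes were without overlap.

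The other 3 lower members belong to complexes I and III. Ndufs8, an iron-sulfur subunit of complex I, was at 199.5, 122.7, 176.1 and 146.9 CPM with CGRP and 329.4, 242, 381.8 and 337.1 CPM with NMU (log2 −0.99, SE 0.21, edgeR adjusted P = 0.0136). Uqcrfs1 was at 228.9, 233.1, 329.6 and 180.8 CPM with CGRP, below its NMU values given above (log2 −0.91, SE 0.23, edgeR adjusted P = 0.0401). Ndufs6, an accessory subunit of complex I, was at 249.2, 160, 142.5 and 111.6 CPM with CGRP and 326.2, 174, 381.9 and 295.6 CPM with NMU (log2 −0.85, SE 0.22, edgeR adjusted P = 0.0415). The first pair had no overlap between treatments, while Ndufs6 did overlap. Ndufs6 shares 30 exonic bases with the opposite-strand gene Mrpl36, and the strand setting of the counting is not given in the sources used here. Ndufs8 lost its call in 2 of 15 alternatives, Uqcrfs1 in 5 and Ndufs6 in 6, with edgeR adjusted P values up to 0.246. Every CGRP library was above every NMU library for 1 member, against 6.86% of all genes, and below for 6, against 6.46%. The median of all members was −0.26, against 0.02 for all tested genes, and −0.08 without replicate 1 of either WT NMU or Pac1-/- NMU.

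Between genotypes, over all treatments, no member passed in edgeR or DESeq2, and 0.113% of all tested genes did in edgeR. At an unadjusted P under 0.05 there was 1 member, against 6.77% of all genes. This was Sdha, higher in Pac1-/- by a log2 difference of 0.63 (SE 0.22, edgeR adjusted P = 0.592). The median of all members was −0.06. By complex it lay between −0.15 (complex II) and −0.02 (complex III).

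Within single treatments, no member passed in edgeR either, and DESeq2 called 0 members except Cox7a2l with CGRP. With IL-7, where 0.00668% of all genes passed, the median was 0.04, and 1 member (Sdhc, log2 −0.75, edgeR adjusted P = 0.891) was at an unadjusted P under 0.05, against 4.45% of genes. With IL-33, where 0.00668% passed, the median was −0.52 (−0.33 without WT IL-33 replicate 2, −0.28 under total-count scaling), 72 of 78 members were negative, and 7 were at that P, against 3.69%. With CGRP, where 0.107% passed, the median was −0.26 (−0.12 without WT CGRP replicate 1) and 4 members were at that P, against 7.8%. With NMU, where 0.02% passed, the median was 0.55 (0.19 without WT NMU replicate 2, 0.23 without Pac1-/- NMU replicate 1), 63 of 78 were positive, and 21 were at that P, against 3.29%. Other protein-coding genes under 1000 bases with at least 50 CPM had medians of −0.54 with IL-33 and 0.43 with NMU.

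**Figure D4:**
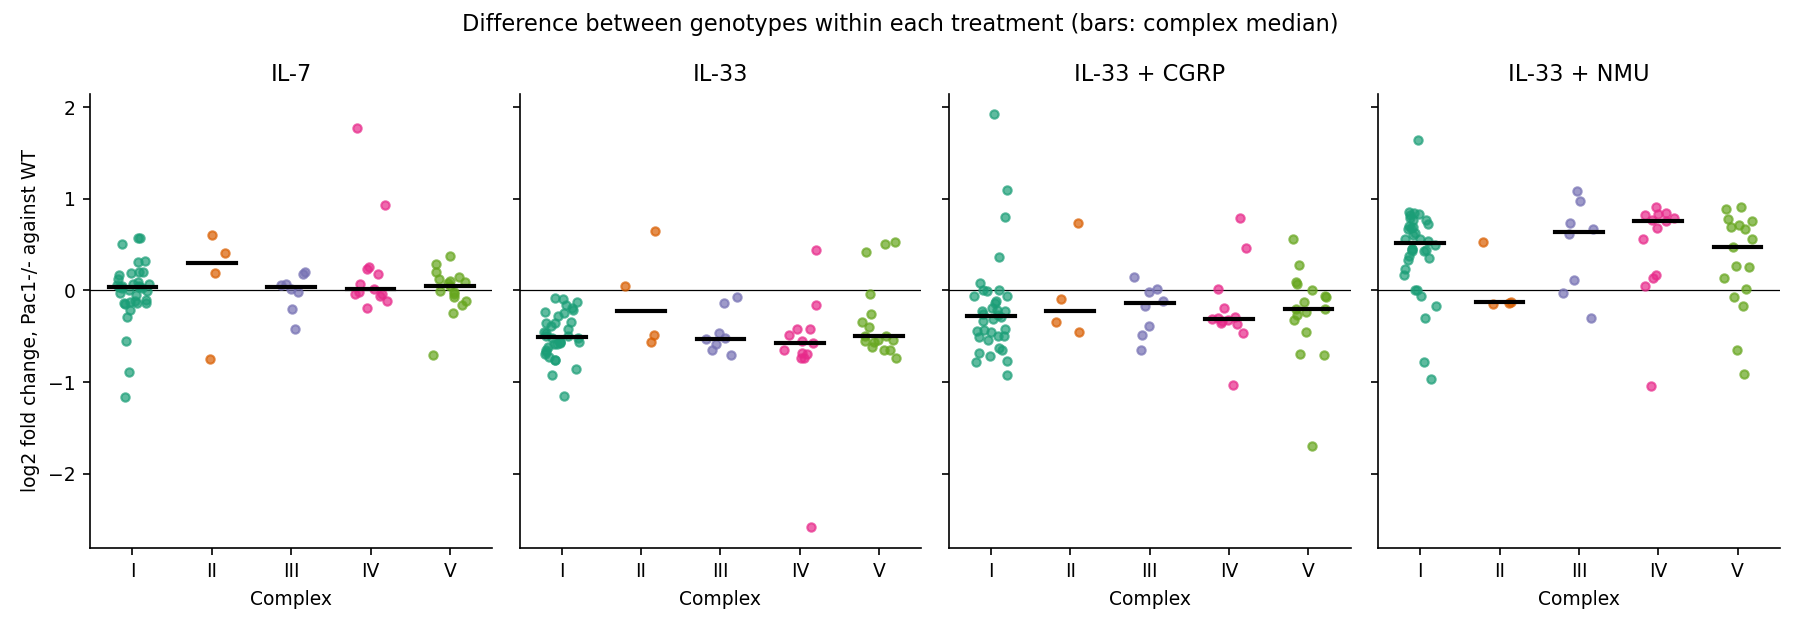
Fitted log2 fold change of Pac1-/- against WT (y axis) of the 78 tested members by complex (x axis) in each treatment, with black bars for complex medians. Points centre near 0 with IL-7, below 0 with IL-33 and CGRP, and above 0 with NMU except in complex II, and no member passed the test in any panel.

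The NMU difference between genotypes moved with single libraries. Uqcr11, a small complex III subunit, was at 274.8 and 182.2 CPM in WT and at 639.9 and 332.7 CPM in Pac1-/- (log2 1.09, SE 0.32, edgeR adjusted P = 1). Without WT NMU replicate 2 the members' median was 0.19 in place of 0.55, without Pac1-/- NMU replicate 1 it was 0.23, and without WT NMU replicate 1 it was 1.01. In WT NMU replicate 2 the members stood 0.704 below their mean over all libraries (median, log2). Other protein-coding genes under 1000 bases with at least 50 CPM stood 0.637 below theirs. In Pac1-/- NMU replicate 1 the members stood 0.501 above and those other genes 0.391 above. The libraries with low or high members thus had low or high short genes as well, and the part of this in the differences was not tested.

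Interactions asked whether a treatment acted differently in the genotypes. The shares of all tested genes that passed were 0.0% for IL-33, 0.0% for CGRP and 0.0% for NMU, and edgeR called 0 members in each. At an unadjusted P under 0.05 there was 1 member with IL-33 (4.85% of all genes), 1 with CGRP (6.04%) and 43 with NMU (5.43%). DESeq2 called 0 members for IL-33 and NMU and 1, Cox7a2l, for CGRP. The median with NMU was 1.06. Its smallest edgeR adjusted P was 0.912, a value that several members shared, among them Ndufa11, an accessory subunit of complex I (log2 1.71, SE 0.46), and Uqcr11 (log2 1.67, SE 0.45). The median was 0.70 without WT NMU replicate 2, 0.71 without Pac1-/- NMU replicate 1 and 1.61 without WT NMU replicate 1.

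The 13 mitochondrially encoded subunits were set beside the nuclear ones. Their levels differed widely, with IL-33 means of 7917 CPM for mt-Co1, 61.8 CPM for mt-Co2 and 59.57 CPM for mt-Co3. Near the floor were mt-Atp8 (0.41 to 3.62 CPM over all libraries) and mt-Nd4l (0.30 to 6.35 CPM). In the WT libraries mt-Nd3 was near the floor too, at 1.265 to 5.046 CPM, against 12.97 to 30.01 CPM in Pac1-/-. The treatment of multi-mapped reads is not given, and its part in these levels and differences was not tested. With IL-33 against IL-7 all 13 had negative log2 differences (median −0.86, 0 called by edgeR). With CGRP against IL-33 all 13 were positive (12 under total-count scaling), with a median of 0.87, and 3 rose: mt-Cytb, the cytochrome b of complex III (log2 1.07, SE 0.25, edgeR adjusted P = 0.0366), mt-Co1, the catalytic subunit of complex IV (1.25, SE 0.17, adjusted P = 0.00174), and mt-Nd5, a proton-pumping subunit of complex I (0.91, SE 0.21, adjusted P = 0.0344). With NMU against IL-33 the median was 0.29 and 0 were called. Between genotypes, mt-Nd3 was higher in Pac1-/- over all treatments, at a mean of 21.16 CPM against 2.74 CPM (log2 2.93, SE 0.47, edgeR adjusted P = 0.0327), and the other 12 did not pass.

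**Figure D5:**
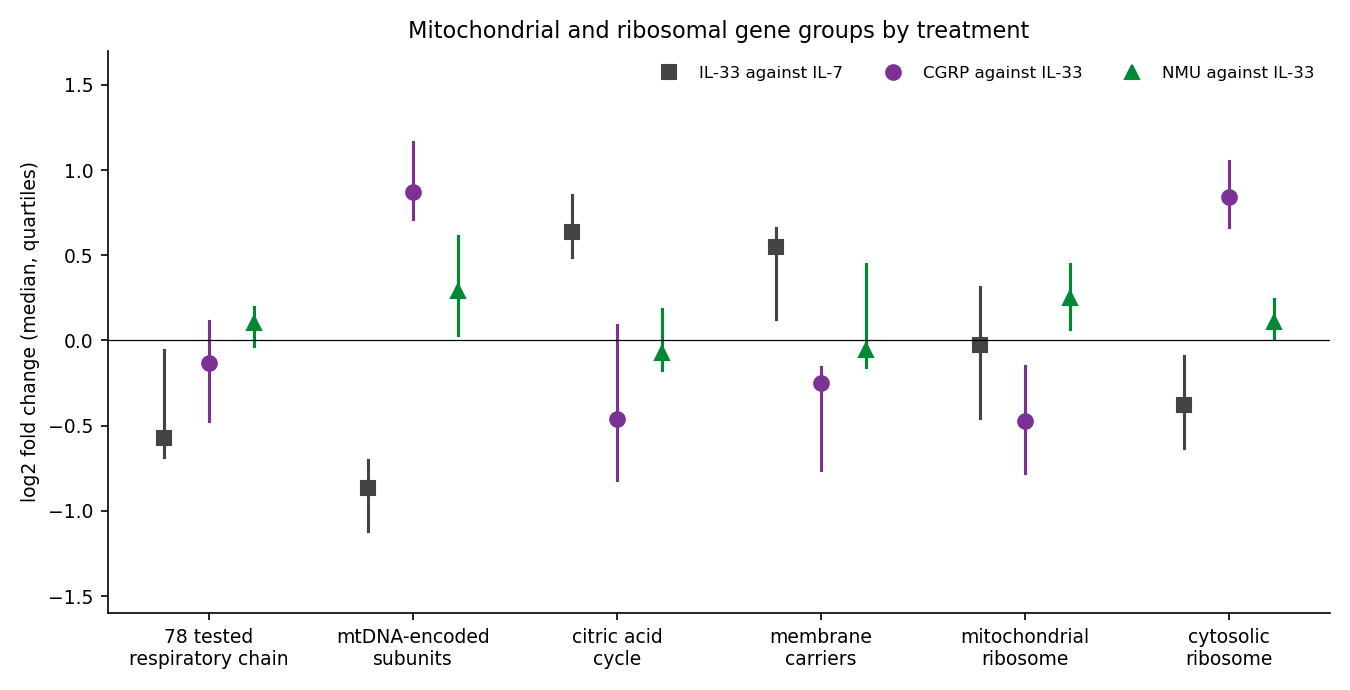
Median log2 fold change (y axis, bars for quartiles) of the 78 tested members and of 5 other gene groups (x axis) for 3 comparisons. Nuclear members and mitochondrially encoded subunits are both below 0 with IL-33, while with CGRP the mitochondrially encoded subunits and the cytosolic ribosomal proteins are above 0 and the members are near 0 (−0.37 under total-count scaling). Under total-count scaling the mitochondrial ribosome turns positive with IL-33, and the members and the cytosolic ribosome turn negative with NMU.

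Genes around the chain were counted from lists. The 14 citric acid cycle enzymes all had positive differences with IL-33 (median 0.64), as did 7 of 7 inner and outer membrane carriers (median 0.55), and 0 of either list passed in edgeR. With CGRP against IL-33 the medians were −0.46 and −0.25, again with 0 called. Of 77 tested mitochondrial ribosomal proteins, 62 had negative differences with CGRP (median −0.47) and 1 fell, Mrpl19 (log2 −1.94, SE 0.40, edgeR adjusted P = 0.0221), while with IL-33 their median was −0.03 with 0 called. Cytosolic ribosomal proteins, mostly short genes, had a median of −0.38 with IL-33 (84 tested, 0 called), and with CGRP 40 of 84 rose (median 0.84).

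The assembly factors of complexes I (15 tested), II (4), III (6), IV (16) and V (4) and the 8 subunits and carriers outside the name rule, such as Cycs (cytochrome c), had 0 called with IL-33, CGRP or NMU. Of 16 tested regulators of mitochondrial gene expression (Yy1, Twnk, Nrf1, Polg, Polg2, Tfb1m, Tfb2m, Tfam, Polrmt, Gabpa, Gabpb1, Ppargc1b, Pprc1, Esrra, Ssbp1 and Myc) 0 passed in those comparisons, with a median of 0.29 with IL-33, −0.29 with CGRP and 0.27 with NMU. Ssbp1, which binds single-stranded mitochondrial DNA, had −0.83 with IL-33 (SE 0.23, edgeR adjusted P = 0.337), and Myc, a growth regulator, had 1.35 with CGRP (SE 0.38, edgeR adjusted P = 0.09). More genes passed between the neuropeptides, with CGRP relative to NMU. Tfam, which packages mitochondrial DNA, was lower (log2 −1.02, SE 0.27, edgeR adjusted P = 0.0482), as were Tfb2m, a mitochondrial transcription factor (−1.84, SE 0.48, adjusted P = 0.0409), Slc25a5, an ADP/ATP carrier (−0.94, SE 0.21, adjusted P = 0.0197), and Ndufaf4, a complex I assembly factor (−1.24, SE 0.27, adjusted P = 0.0172). Polg2, the accessory subunit of the mitochondrial DNA polymerase (3.68, SE 0.90, adjusted P = 0.0298), and Ogdh, of the citric acid cycle (1.85, SE 0.38, adjusted P = 0.0128), were higher. Polg2 was low with NMU, at 0.1539, 7.686, 2.294 and 2.161 CPM, against 39.1, 28.52, 41.92 and 44.48 CPM with CGRP. Its value in WT NMU replicate 1 lies below the 0.462 CPM that 3 counts give in that library. In the same comparison 7 of 77 mitochondrial ribosomal proteins were lower.

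Sequence sharing limits some members. Of the 84, 24 share a stretch of at least 100 bases at 95% identity or more with another gene, and 29 overlap an exon of another gene, 5 of them on the same strand. Sdhc, Ndufs8, Uqcrfs1 and Uqcrq are in neither set, and Cox7a2l is in the first only.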

How the data were processed

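RNA from about 500 ILC2s per library was amplified as full-length cDNA and sequenced, and the authors aligned reads with HISAT2 (genome mm10). They then counted reads per Ensembl gene, and these raw counts are what was deposited by the authors. The counting tool, annotation, strand setting and treatment of multi-mapped reads are not given in the sources used here. Symbols, gene types, positions and exon lengths were taken from GENCODE release 21 of the mouse annotation.

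Counts were analysed as deposited with edgeR 4.0.16 in R 4.3.3: filterByExpr, TMM factors, 1 quasi-likelihood fit of 8 genotype-by-treatment groups over 16 libraries (8 residual degrees of freedom, 14979 genes, common biological coefficient of variation 0.985), and Benjamini-Hochberg adjustment over all tested genes. The call rule, fold change above 1.5 and adjusted P under 0.05, was that of the study. Treatment comparisons average the genotypes. Because fold changes are fitted to counts, they differ slightly from ratios of CPM. Levels between genes are CPM per kilobase.

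Members and lists were chosen with earlier results of these data known, so no set test was run. The lists were assembly factors, subunits outside the name rule, mitochondrially encoded subunits, citric acid cycle enzymes, regulators, carriers, and mitochondrial and cytosolic ribosomal proteins. Named members were those called, the 3 smallest P values where fewer than 3 were called between treatments, the highest and lowest per length in each complex, tissue isoforms, and 9 core subunits. From the other lists up to 5 called genes were named. Scripts were tested on simulated data. Alternatives were DESeq2 1.42.0, RLE and total-count scaling, other count filters, only the libraries compared, a replicate block, and each library left out. Near-identical genes were found with BLAST 2.17.0. A cell type marker of the list used is not reported here.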

Additional observations from a re-analysis of the deposited data

Results flagged for a closer look

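2 values stood apart from the other 3 libraries of their treatment by Dixon's 95% criterion, of 68 groups of 4 libraries tested, where chance gives about 1 in 20. Atp5a1 was at 264.2 CPM in WT IL-7 replicate 2, against 212.2 to 216.2 CPM in the others. Sdha was at 165.6 CPM in Pac1-/- IL-33 replicate 2, against 78.7 to 87.28 CPM in the others.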

How the results depend on the processing

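Of 434 recomputed values for the counts of called members, medians and summed levels, 393 stayed within set limits. A count had to be equal or within a factor of 1.5. A median had to stay within the spread between replicates (0.252, SD of the members' median on the log2 scale). A summed level had to stay within the spread between replicates of its own complex. The count of called members with IL-33 rose from 0 to 3 with DESeq2, 7 without a count filter, 1 with at least 10 counts in every library and 1 on the libraries compared alone, and was 0 to 1 when 1 library was left out. With CGRP against IL-33 it went from 2 to 7 under total-count scaling, 4 without a filter and 1 on the libraries compared alone, and was 1 to 4 without 1 library. With CGRP against NMU it went from 5 to 11 under total-count scaling, 9 with DESeq2, 11 without a filter, 10 with at least 10 counts and 2 on the libraries compared alone, and was 4 to 11 without 1 library. Pac1-/- against WT with CGRP and the genotype by CGRP interaction went from 0 to 1 with DESeq2, the former being 0 to 1 without 1 library, and the genotype by NMU interaction went from 0 to 1 without a filter. Its median was 0.70 under total-count scaling and 0.70 to 1.61 without 1 library, and the median of Pac1-/- against WT with NMU was 0.19 to 1.01 without 1 library. The causes were not tested.

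Total-count scaling, which omits the composition factor, shifted the median of all genes by 0.19 with IL-33, −0.24 with CGRP and −0.14 with NMU (log2). Relative to that median the members were at −0.65 with IL-33, −0.04 with CGRP and 0.16 with NMU, against −0.65, −0.04 and 0.18 with TMM. The split of all calls with CGRP against IL-33 was 192 higher and 376 lower under it, against 247 and 166. The summed level of complex II with CGRP was then −0.66, that of complex V −0.038 with IL-33 and −0.365 with CGRP, and the geometric mean of complex III with IL-33 gave −0.48.

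Single core subunits near 0 changed sign. With IL-33 against IL-7 these were Uqcrfs1 (0.035 under total counts) and Uqcrc1, which was −0.013 without Pac1-/- IL-33 replicate 1 and up to 0.229 without another library. With CGRP against IL-33 they were Cox4i1 (−0.171 under total counts), Cox5a (−0.203 under total counts, −0.025 to 0.115 without 1 library) and Uqcrfs1 (−0.404 to 0.017 without 1 library). With NMU against IL-33 they were Ndufs1 (−0.372 to 0.069), Sdha (−0.47 to 0.004) and Atp5b (−0.407 to 0.364) without 1 library, and Atp5b was −0.049 under total counts.

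Over all tested genes, same-numbered libraries of different groups did not deviate together: over 28 pairs of groups the correlation of deviations was −0.101 to 0.073. The members did move alike in the NMU groups. Their median log2 difference of replicate 2 from replicate 1 was −0.691 in WT NMU and −0.609 in Pac1-/- NMU. In the other groups it was −0.212 to 0.321. With the replicate number as a block the counts of called members were 0 with IL-33, 2 with CGRP, 0 with NMU, 5 for CGRP against NMU and 0 between genotypes, so that it changed no count. Medians near 0 between genotypes also changed sign when 1 library was left out, −0.134 to 0.05 over all treatments and −0.096 to 0.175 with IL-7.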
